A study of Danio rerio with 12 samples.

Results

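The comparison of Pb with control at 72 hpf (hours post fertilization) rests on 6 of the 12 arrays of the series, the 3 titled for 100 ppb Pb and the 3 titled for 0 ppb Pb at that age, and the arrays were chosen by these titles alone. Wild-type zebrafish of the AB strain were kept from about 1 hpf in water with 0 or 100 ppb lead acetate. Each array carried the RNA of 1 pool of 50 whole embryos, so a value is an average over animals and tissues. The p-values of the main fit rest on the spread between pools within a group, estimated over all 4 groups of 3 pools. The other 6 arrays hold the same doses at 120 hpf. They enter the values at 72 hpf through the shared normalization, and the p-values through that spread. Their own ratios are given below where the ages are compared. The study asked which transcripts a dose without visible toxicity alters, and genes of axon guidance, cell adhesion, and the synapse are left aside here in favor of the remaining tissues and functions.

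Pb enters cells in the place of calcium and zinc and binds to proteins that use these ions, among them enzymes of heme synthesis, calcium sensors, and zinc-dependent enzymes. It is known for damage to the proximal tubule of the kidney, for its storage in bone, and for its effect on red blood cells, besides its effect on the nervous system. A zebrafish embryo of this age has a beating heart, circulating erythrocytes, contractile muscle, pigment cells, a pronephric kidney, ionocytes in the skin, and a differentiating retina and lens, while liver, pancreas, and gut are still maturing.

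The array measures 37157 targets, where a target is 1 transcript or predicted transcript, with 12 probes for 21894 of them. A gene symbol could be given to 2663 targets (7.17%) of 2650 genes, and all genes named here come from these. Values are log2 intensities averaged over the probes of a target. Signal differs between probes for reasons of sequence, so levels are compared between arrays and not between genes.

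Percentiles of the mean signal describe how bright the probes of a list were and do not rank amounts of RNA. Among all targets, the median percentile of the mean signal was 95.2 for 24 lens genes, 91.7 for 22 skeletal muscle genes, 73.5 for 19 epidermal genes, 72.4 for 12 liver genes, and 61.8 for 30 kidney and ionocyte genes, and 57 for all named genes. It was 37.5 for 13 erythroid genes, 28.5 for 6 macrophage and neutrophil genes, and 26.6 for 20 neuroendocrine genes. No detection call was used, so a dim target cannot be called absent. In RNA of whole animals, fewer cells of a type and less RNA per cell cannot be told apart.

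limma called 0 of 37157 targets between Pb and control (0%, adjusted p under 0.05, smallest adjusted p 0.999). Before adjustment, 566 targets had p under 0.05 (333 higher with Pb, 233 lower). The methods' t-test, run here with the same thresholds, had 532 such targets and likewise called 0 after adjustment. The study's own criteria differ and were not applied here. They join a t-test p, with no adjustment stated, to a minimum size of change, and ask for a minimum change in every replicate. The split by direction depended on the setting. It was 8 higher and 135 lower on the values as deposited, and 33 higher and 207 lower with median centering. With only the 6 arrays of 72 hpf it was 117 higher and 293 lower. With the lowest 25% of targets left out it was 132 higher and 184 lower. More were higher than lower with cyclic loess normalization (217 against 193) and with median polish (447 against 195). The same held for probes within 500 nt of the last probe (448 against 259) and for the t-test (371 against 161). The values below therefore describe 6 arrays, and no gene or list is reported as altered by the test. Arrays of control and Pb that share a replicate number in the labels are called a pair. Of the named genes, 359 (13.5%) were higher with Pb in all 3 pairs and 282 (10.6%) were lower, and for 95 (3.58%) every Pb array lay above every control array, with 44 (1.66%) the other way round. Over all targets the latter shares were 2.78% and 1.92%. A log2 fold change below 0 was found for 45.8% of named genes. These shares are the background for each list. The pairs differed in spread, with a standard deviation of the ratio over targets of 0.662, 0.266, and 0.572 in pairs 1, 2, and 3. The Pb arrays had a mean r of 0.914, 0.946, and 0.931 with the rest of their group, and the controls 0.979, 0.983, and 0.984.

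Among named genes that were lower with Pb in all 3 pairs, *capn2a*, a catalytic subunit of the calcium-activated protease calpain, had the smallest p. Its log2 intensity was 11.77, 11.46, and 11.55 on control arrays 1, 2, and 3 and 10.56, 10.94, and 11.01 on the Pb arrays. All 3 Pb arrays lay below all 3 controls, with Pb array 1 the lowest. The log2 fold change was -0.76 (standard error 0.271, adjusted p = 0.999 from limma), which is 1.70-fold lower. All 12 of its probes were lower in pair 1 and in pair 2, 10 of them were lower in pair 3, and 10 of 12 were lower in all 3 pairs. With only the 4 probes within 500 nt of the last one, the ratios were -0.93, -0.57, and -0.80.

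*dnmt3aa*, a de novo DNA methyltransferase, was at 10.07, 9.78, and 10.18 on the control arrays and at 9.09, 9.30, and 9.13 on the Pb arrays. The groups did not overlap, and the 3 Pb arrays lay closer together (SD 0.112) than the controls (SD 0.204). The log2 fold change was -0.84 (standard error 0.32), or 1.79-fold lower. Of its 12 probes, 10 were lower in all 3 pairs, and the probe farthest from the last one was higher in pairs 1 and 3 (1.20 and 2.16). The 4 probes within 500 nt of the last one gave -0.66, -0.42, and -1.55.

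*trappc2l*, a subunit of the TRAPP complexes that tether vesicles, was at 9.24, 8.32, and 8.48 in controls and at 8.30, 7.84, and 7.17 with Pb. The highest Pb array lay just under the lowest control, and the target has only 3 probes, of which 2 were lower in all 3 pairs. *itgb1b.1*, a beta-1 integrin chain that anchors cells to matrix, was at 12.42, 12.45, and 12.11 in controls and at 12.002, 12.11, and 11.53 with Pb. Pb array 2 and control array 3 were level to within rounding, and 7 of 12 probes were lower in all 3 pairs. *slc7a4*, of the cationic amino acid transporter family, was at 8.75, 8.74, and 8.44 in controls and at 7.74, 8.41, and 8.11 with Pb, again without overlap by a narrow margin.

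**Figure D1:**
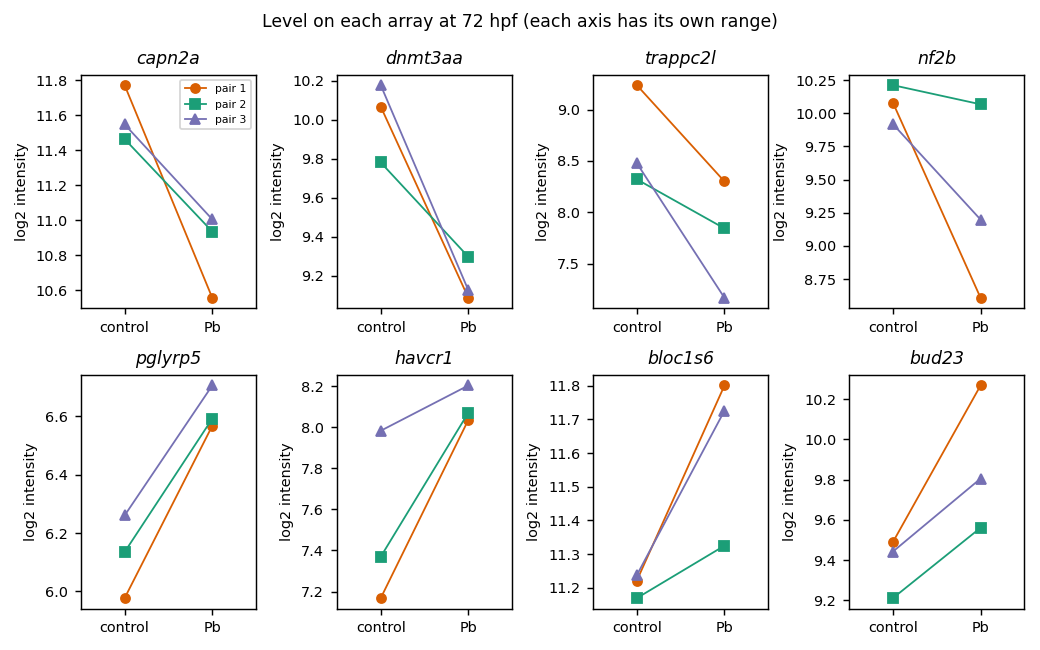
Log2 intensity (vertical axis, a range of its own in each panel) of 8 genes on the control and the Pb arrays of 72 hpf, with lines joining arrays of one replicate number. *capn2a*, *dnmt3aa*, *trappc2l*, *pglyrp5*, *havcr1*, *bloc1s6*, and *bud23* have no overlap between the groups, while the Pb array of pair 2 for *nf2b* (10.07) lies within the controls.

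Several of the other genes of this kind owed most of their mean to pair 1. *bcl9*, a coactivator of beta-catenin in Wnt signaling, was at 11.61, 11.76, and 11.71 in controls and at 8.60, 11.42, and 10.92 with Pb. No Pb array reached a control, but Pb array 1 stood far below the other two. Its probes within 500 nt of the last one gave -0.33, 0.29, and -0.79, and 9 of its probes at least 986 nt away gave -3.02 to -4.79 in pair 1. *srgap2*, an F-BAR domain protein that bends membranes, was at 10.58, 10.54, and 10.37 in controls and at 8.73, 10.42, and 9.66 with Pb. *mmd*, a membrane protein of the progestin and adipoQ receptor family, was at 11.16, 11.69, and 11.23 in controls and at 9.35, 11.38, and 10.86 with Pb. In both, Pb array 2 lay among the controls and Pb array 1 was lowest.

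*nf2b*, which encodes merlin, a link between membrane and actin that restrains growth, was at 10.08, 10.21, and 9.92 in controls and at 8.61, 10.07, and 9.20 with Pb. *pdlim7*, a scaffold on actin filaments, was at 9.68, 9.58, and 9.64 in controls and at 8.60, 9.45, and 9.27 with Pb. The groups overlapped for *nf2b* and not for *pdlim7*, whose controls lay within an SD of 0.05. *slc35c1*, the GDP-fucose transporter of the Golgi, was at 8.95, 9.25, and 8.86 in controls and at 8.18, 9.12, and 7.99 with Pb, where Pb array 2 again lay among the controls. *mipa*, a lens fiber water channel, was at 12.07, 12.10, and 12.12 in controls and at 11.72, 11.96, and 11.55 with Pb. The groups were apart for *mipa*, at 1.28-fold, but 2 of its 12 probes were lower in all 3 pairs. In pair 1, 6 of its probes were lower and 6 were higher. The probe 2311 nt from the last one gave -5.9976 there, and the others ran from -0.2114 to 0.813. The sign of the *mipa* ratio in pair 1 (-0.3522) therefore rested on 1 probe. Of the 12 genes with the smallest p in this direction, 8 had no overlap between the groups, against 1.66% of named genes. The choice by p on these same arrays favors such a separation. In all 3 pairs, 7 stayed lower both with the probes near the end alone and after cyclic loess normalization. All 3 probes of *trappc2l*, which is among these 7, lie near the end, so that choice of probes could not change its ratios. With the probes near the end alone, pair 2 turned to 0.53 for *pdlim7*, 0.29 for *bcl9*, 0.20 for *srgap2*, and 0.10 for *slc35c1*. For *mipa*, which has 1 such probe, the ratios were 0.56, 0.31, and -2.15.

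**Figure D2:**
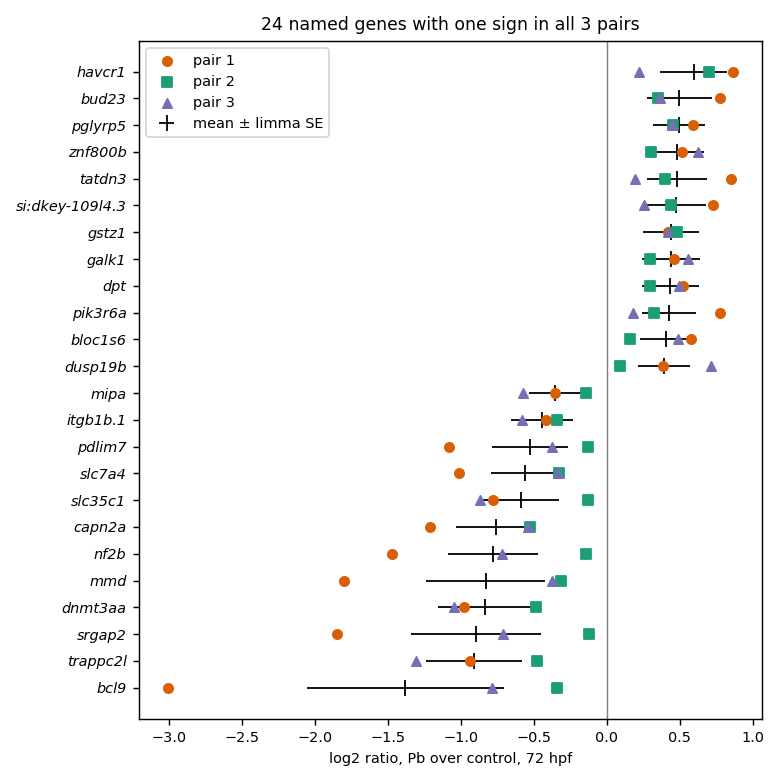
Log2 ratio of Pb over control in each pair (symbols) with the mean and its limma standard error (bars) for the 12 named genes with the smallest p in each direction, among those of one sign in all 3 pairs. The ratios of *dnmt3aa* run from -1.05 to -0.48, whereas pair 1 stands apart for *bcl9* (-3.01), *mmd*, and *srgap2*.

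Among named genes higher with Pb in all 3 pairs, every Pb array lay above every control for all 12 with the smallest p. The choice by p on these same arrays favors such a separation, which 3.58% of named genes had. *pglyrp5*, a peptidoglycan recognition protein, was at 5.98, 6.13, and 6.26 in controls and at 6.57, 6.59, and 6.71 with Pb. Its signal was at percentile 12.1, and it has 5 probes, of which 2 were higher in all 3 pairs. Its ratio in pair 3 was 0.44, where the median of all targets in its signal decile was 0.53. After cyclic loess normalization its ratios were 0.33, 0.74, and -0.06. *havcr1*, a surface receptor whose mammalian counterpart appears in injured kidney tubules, was at 7.17, 7.37, and 7.98 in controls and at 8.04, 8.07, and 8.20 with Pb. All 12 of its probes were higher in pair 2, 10 in pair 1, and 8 in pair 3. With only the 6 probes within 500 nt of the last one, the ratios were 0.72, 0.82, and -0.18. *dpt*, the matrix protein dermatopontin, was at 7.57, 7.73, and 7.86 in controls and at 8.09, 8.03, and 8.35 with Pb. Its ratios of 0.52, 0.29, and 0.49 were similar after cyclic loess normalization (0.53, 0.33, and 0.48).

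Enzymes and regulators of basic cell functions made up most of the rest. *bud23*, a methyltransferase that modifies ribosomal RNA, was at 9.49, 9.21, and 9.44 in controls and at 10.27, 9.56, and 9.81 with Pb. *galk1*, which phosphorylates galactose, was at 9.12, 9.13, and 9.39 in controls and at 9.58, 9.43, and 9.95 with Pb. All 12 probes of *bud23* were higher in pair 1, 9 in pair 2, and 6 in pair 3. For *galk1*, 10 were higher in pair 1, 8 in pair 2, and all 12 in pair 3. In all 3 pairs, 5 probes of *bud23* and 6 of *galk1* were higher. *bloc1s6*, part of a protein assembly needed to form lysosome-related organelles such as melanosomes, was at 11.22, 11.17, and 11.24 in controls and at 11.80, 11.33, and 11.73 with Pb. Its controls agreed to an SD of 0.0356, and Pb array 2 stood nearest to them. *dusp19b*, a dual specificity phosphatase, was at 8.57, 8.79, and 8.54 in controls and at 8.95, 8.88, and 9.25 with Pb. *pik3r6a*, a regulatory subunit of phosphoinositide 3-kinase gamma, was at 7.26, 7.30, and 7.59 in controls and at 8.03, 7.63, and 7.77 with Pb. For both the lowest Pb array was close to the highest control.

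The remaining 4 were *gstz1*, *znf800b*, *tatdn3*, and *si:dkey-109l4.3*, at 1.36-fold to 1.40-fold higher. *gstz1*, an enzyme of tyrosine breakdown that uses glutathione, was at 6.75, 6.42, and 6.63 in controls and at 7.18, 6.90, and 7.05 with Pb. A second target of *gstz1* was at 9.68, 9.80, and 10.33 in controls and at 10.23, 10.20, and 10.29 with Pb, where control array 3 lay above all Pb arrays. Of the 12 genes, 9 remained higher in all 3 pairs after cyclic loess normalization, 8 did so with the probes near the end alone, and 6 did so in both. After cyclic loess, pair 3 turned to -0.06 for *pglyrp5*, -0.15 for *tatdn3*, and -0.14 for *si:dkey-109l4.3*. With the probes near the end alone, pair 3 turned to -0.18 for *havcr1*, -0.14 for *gstz1*, and -0.18 for *si:dkey-109l4.3*. There, pair 2 turned to -0.29 for *dusp19b*. All 11 probes of *dpt*, which is counted in the 8 and the 6, lie near the end, so that choice of probes could not change its ratios. The standard errors of all 24 genes lay between 0.178 and 0.677, and limma's adjusted p was 0.999 for each.

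**Figure D3:**
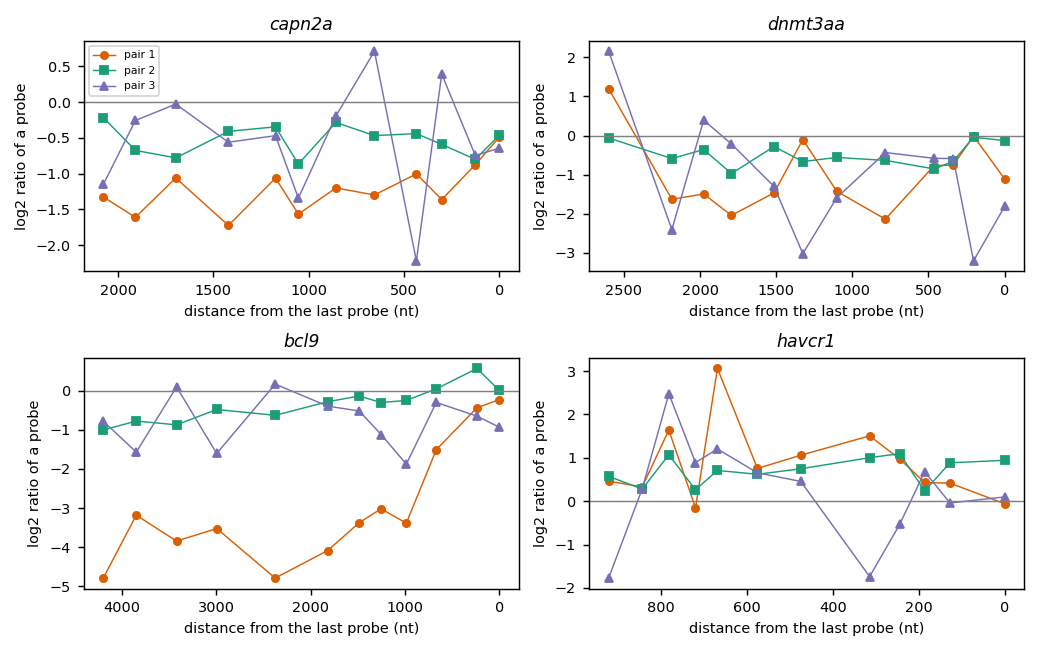
Log2 ratio of Pb over control for each probe (symbols by pair) of *capn2a*, *dnmt3aa*, *bcl9*, and *havcr1* against the distance of the probe from the last probe of the target in nt. The ratios of *capn2a* in pair 1 stay below 0 along the whole target, whereas those of *bcl9* in pair 1 go from -0.23 at the last probe to -4.79 at the far end.

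A ratio depended on where a probe lay and on how bright a target was, and this differed between pairs. In pair 1 the median ratio was 0.20 for probes within 250 nt of the last probe of the target and -0.56 for probes over 2000 nt from it. In pair 2 it went from 0.03 to -0.08, and in pair 3 from 0.02 to -0.02. In pair 3 the median ratio was 0.62 in the dimmest decile of the targets and -0.21 in the brightest, against 0.16 and 0.08 in pair 1 and -0.07 and 0.04 in pair 2. Some lists are therefore also given with their values from the probes near the end or after cyclic loess normalization, and the part of position and signal in them was not tested beyond these values.

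**Figure D4:**
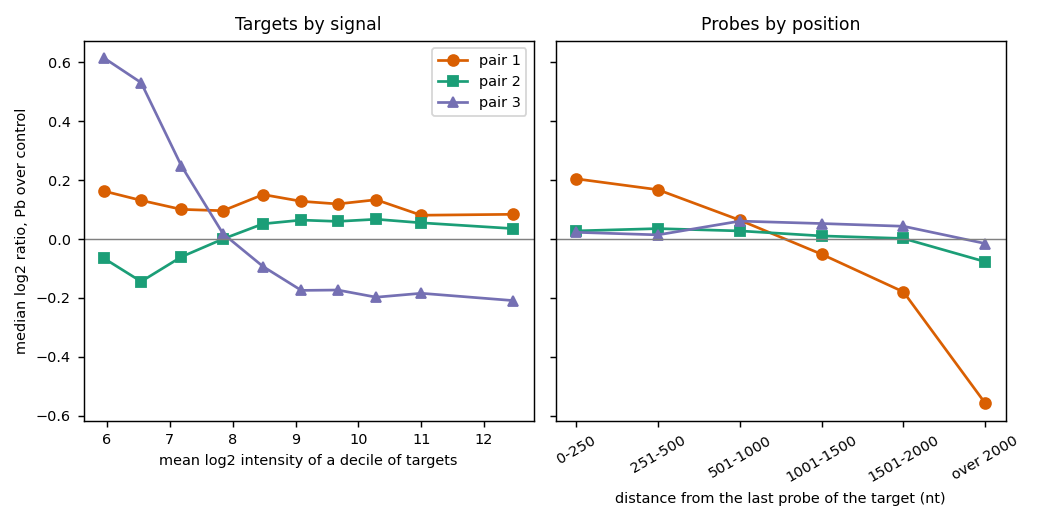
Median log2 ratio of Pb over control in each pair, for deciles of the targets by mean log2 intensity (left) and for probes by distance from the last probe of their target in nt (right). Pair 3 runs from 0.62 to -0.21 with signal, and pair 1 from 0.20 to -0.56 with distance.

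In the eye, all 14 photoreceptor genes had a log2 fold change above 0 (median 0.13), with medians of 0.34, 0.15, and -0.08 in pairs 1, 2, and 3, and 3 of 14 were higher in all 3 pairs. None of the 14 had one sign in all 3 pairs with the probes near the end alone, where the median in pair 3 was -0.36. *rdh8b*, a retinol dehydrogenase of photoreceptors, was at 8.33, 8.73, and 8.59 in controls and at 8.85, 8.90, and 8.68 with Pb. *grk7b*, a cone opsin kinase, was at 6.93, 7.21, and 7.02 in controls and at 7.08, 7.37, and 7.61 with Pb. The groups overlapped in both. Lens genes had medians of 0.32, 0.03, and -0.41 over 24 genes, with 3 higher and 4 lower in all pairs. *crygn1*, a gamma crystallin, was at 9.03, 8.74, and 9.37 in controls and at 9.62, 9.21, and 9.49 with Pb, and *crybb1*, the crystallin with the highest signal, was at 15.27, 15.26, and 15.05 in controls and at 15.11, 15.23, and 14.69 with Pb. Overlap between the groups was present for both crystallins, and the low value of *crybb1* was Pb array 3.

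Skeletal muscle genes split by pair in the same way as lens genes, with medians of 0.16, 0.07, and -0.31 over 22 genes. Cyclic loess brought the median in pair 3 to -0.09 for muscle genes and to -0.24 for lens genes. *casq1b*, a calcium store protein of the sarcoplasmic reticulum, was at 12.60, 12.42, and 12.64 in controls and at 12.31, 12.38, and 12.04 with Pb. Its groups were apart by a narrow margin, and the sign of its mean turned with the probes near the end (0.038) and with median polish (0.048). *mylpfb*, a fast muscle myosin light chain, was at 15.24, 15.23, and 15.37 in controls and at 15.29, 15.19, and 14.85 with Pb, so that Pb array 3 alone stood out. None of the 5 heart genes had one sign in all 3 pairs.

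Erythroid genes, of interest because Pb blocks heme synthesis, had medians of 0.02, 0.10, and 0.40 over 13 genes, and 1 of them was higher in all 3 pairs. This was *hbae4*, an embryonic alpha globin, at 8.05, 7.27, and 7.84 in controls and at 8.59, 7.75, and 8.02 with Pb. *hbae3*, an embryonic alpha globin of high signal, was at 14.85, 14.59, and 14.77 in controls and at 14.87, 14.71, and 14.43 with Pb. Neither separated the groups. The vessel list held *cdh5*, the cadherin of endothelial junctions, at 9.98, 10.08, and 9.83 in controls and at 9.23, 10.04, and 9.35 with Pb, and *heg1*, a receptor needed for heart and vessel growth, at 8.55, 8.86, and 8.26 in controls and at 7.46, 8.58, and 8.16 with Pb. Both were lower in all 3 pairs with overlapping groups, and they were the only 2 of 15 vessel genes of that kind. With the probes within 500 nt of the last one, *heg1* gave 0.63, 0.03, and -1.99 and *cdh5* gave -0.06, -0.15, and -0.65. Of the 15 genes, 9 had a log2 fold change above 0 and 1 was higher in all 3 pairs. The medians of the list were 0.07, 0.06, and -0.09.

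Kidney and ionocyte genes were among the lists with more genes higher in all 3 pairs than the background. Of 30 genes, 7 (23.3%) were higher in all 3 pairs against 13.5% of named genes, 2 (6.67%) were lower, and 25 had a log2 fold change above 0. The medians were 0.34, 0.10, and 0.06 in pairs 1, 2, and 3. For 3 of the 30 genes every Pb array lay above every control, against 3.58% of named genes and 2.78% of all targets. The other way round it was 0 of the 30, against 1.66% of named genes. Besides *havcr1*, the genes without overlap were *aqp9a* and *atp6v0e1*, named after their values were seen. *aqp9a*, a channel for water and small solutes, was at 10.55, 10.71, and 10.63 in controls and at 10.91, 10.97, and 10.79 with Pb, and *atp6v0e1*, a subunit of the proton pump, was at 11.15, 11.18, and 11.23 in controls and at 11.46, 11.28, and 11.39 with Pb. *ift27*, a transport protein of cilia, was at 9.84, 9.90, and 10.46 in controls and at 10.40, 10.19, and 10.61 with Pb, with control array 3 among the Pb arrays. With the probes near the end alone the median in pair 3 was -0.21, and 4 genes (13.3%) were higher in all 3 pairs against 15.6% of named genes with these probes.

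Innate immune genes were mostly dim and mostly on the side of Pb. Of 47 genes, 39 had a log2 fold change above 0, but 5 (10.6%) were higher in all 3 pairs and 4 (8.51%) lower, close to the background. The medians were 0.18, -0.06, and 0.44, at a median signal percentile of 19.5, and cyclic loess brought them to 0.02, -0.02, and 0.07. *hamp*, which encodes the iron regulator hepcidin, was at 5.63, 7.65, and 7.66 in controls and at 6.81, 8.38, and 7.90 with Pb. Its 3 ratios were above 0 (1.18, 0.73, and 0.24), while the groups overlapped because replicate 1 was low in both (standard error 0.621). *rela*, a subunit of NF-kappa-B, was at 9.29, 9.04, and 8.88 in controls and at 8.06, 8.996, and 8.53 with Pb, and *mxc*, an interferon-induced GTPase named after its values were seen, was at 6.80, 6.72, and 7.06 in controls and at 6.65, 6.48, and 6.47 with Pb. For *mxc* all Pb arrays lay below all controls, and for *rela* Pb array 2 lay among them. Neuroendocrine genes, likewise dim, had medians of 0.05, -0.05, and 0.46, which cyclic loess brought to -0.03, -0.03, and 0.25.

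Skin, matrix, and pigment genes had no common direction. *cldn29*, a tight junction claudin, was at 8.85, 8.76, and 8.49 in controls and at 9.18, 8.93, and 9.09 with Pb. Its groups did not overlap, and 5 of 19 epidermal genes were higher and 3 lower in all 3 pairs. *krt97*, a keratin, was at 11.80, 12.32, and 11.79 in controls and at 12.38, 12.47, and 11.92 with Pb, and its mean turned to -0.17 with the probes near the end alone. *twist2*, a transcription factor of mesenchyme and skin, was at 10.10, 10.17, and 10.35 in controls and at 10.67, 10.25, and 10.67 with Pb, while *col27a1b*, a fibrillar collagen of cartilage, was at 7.04, 7.70, and 7.23 in controls and at 6.28, 6.99, and 7.21 with Pb. The groups overlapped in these 3 genes. In the liver, 3 of 12 genes were higher in all 3 pairs and none was lower, among them *gstz1* and *vtg5*, a yolk protein precursor at 6.24, 5.95, and 5.81 in controls and 7.19, 6.003, and 6.40 with Pb. Of these 12 liver genes, 0 were higher and 1 was lower in all 3 pairs with the probes near the end alone. Of 13 genes of the gut and pancreas, none had one sign in all 3 pairs. Of 9 ear genes, 3 (33.3%) were higher and 2 (22.2%) lower in all 3 pairs, against 13.5% and 10.6% of named genes. With the probes near the end alone 1 was higher and 1 lower. Among the lower ones, *myo6a*, an unconventional myosin of hair cells, was at 11.25, 11.18, and 11.08 in controls and at 9.21, 10.99, and 10.83 with Pb. No Pb array of *myo6a* reached a control, and pair 1 gave -2.04 against -0.19 and -0.25.

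Lists on metal and stress responses did not share one direction across pairs. The 11 genes of metal handling had medians of -0.49, -0.06, and 0.13, with 1 gene higher (*hamp*) and 1 lower in all 3 pairs. The latter was *aco1*, which senses iron as an aconitase, at 11.76, 12.17, and 11.85 in controls and at 11.13, 12.11, and 11.67 with Pb, with overlap. Among 23 genes of glutathione and oxidative stress, 3 were higher and 2 lower in all 3 pairs. *nfe2l3*, a relative of the stress factor Nrf2, was at 9.43, 9.44, and 9.43 in controls and at 8.53, 9.41, and 9.31 with Pb, so that Pb array 1 set the mean. Of 39 genes of xenobiotic metabolism, 27 were above 0 and 7 were higher in all 3 pairs, with medians of 0.41, 0.13, and -0.15.

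Heat shock and folding genes had medians above 0 in all 3 pairs, at 0.20, 0.17, and 0.03 over 25 genes, with 5 higher and 1 lower in all 3 pairs. The median in pair 3 was -0.07 with the probes near the end alone. *hspb9l*, a small heat shock protein, was at 9.97, 9.94, and 10.32 in controls and at 10.63, 10.45, and 10.40 with Pb. *hsp70.3*, an inducible chaperone, was at 10.45, 10.34, and 9.74 in controls and at 10.91, 10.51, and 10.29 with Pb. The groups were narrowly apart for *hspb9l* and overlapped for *hsp70.3*. Retinoid genes also had medians above 0 in all 3 pairs (0.41, 0.18, and 0.02 over 17 genes). Of these genes, 5 (29.4%) were higher in all 3 pairs and 0 lower, against 13.5% and 10.6% of named genes. For 3 of the 17, every Pb array lay above every control, against 3.58% of named genes. The 3 were *aldh1a3*, which makes retinoic acid, *dhrs7ca*, a short-chain dehydrogenase, and the receptor gene *rxrga*, named after its values were seen. *aldh1a3* was at 9.01, 9.26, and 9.42 in controls and at 9.75, 9.45, and 9.44 with Pb, apart by a narrow margin. *dhrs7ca* was at 7.03, 7.51, and 7.26 in controls and at 7.60, 7.83, and 7.57 with Pb. Its Pb array 3 was closest to the controls. The probes near the end alone gave 0.58, -0.29, and -0.15 for *dhrs7ca* and 0.95, 0.33, and 0.54 for *aldh1a3*. With the probes near the end alone the retinoid median in pair 3 was -0.06. With these probes 4 genes (23.5%) were higher and 1 (5.88%) lower in all 3 pairs, against 15.6% and 8% of named genes.

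Genes of mitochondrial respiration lay above 0 in pairs 1 and 2 and below 0 in pair 3 (medians 0.45, 0.28, and -0.22 over 30 genes). Of these, 8 (26.7%) were higher and 2 (6.67%) lower in all 3 pairs, against 13.5% and 10.6% of named genes. Cyclic loess brought the median of this list in pair 3 to 0.0032. *atp5if1a*, the inhibitor of the ATP synthase, was at 12.59, 12.67, and 12.58 in controls and at 13.01, 12.71, and 13.07 with Pb. *ndufs8b*, a subunit of complex I, was at 6.15, 6.12, and 6.61 in controls and at 6.68, 6.44, and 7.31 with Pb. *slc25a5*, the ADP and ATP carrier, was at 15.47, 15.49, and 15.53 in controls and at 15.41, 15.42, and 15.26 with Pb. The groups were apart for *atp5if1a* and *slc25a5*, in opposite directions, and overlapped for *ndufs8b*. *rpl37*, of the large ribosomal subunit, was at 9.41, 9.85, and 10.03 in controls and at 10.17, 9.99, and 10.70 with Pb, and *psma6b*, of the proteasome core, was at 11.31, 10.89, and 11.62 in controls and at 12.01, 11.35, and 11.91 with Pb. Overlap was present for both.

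In developmental signaling and the cytoskeleton, the share of genes lower in all 3 pairs was above that of all named genes. Of 40 genes of Notch, Hedgehog, FGF, and BMP signaling, 11 (27.5%) were lower and 3 (7.50%) higher in all 3 pairs, against 10.6% and 13.5% of named genes. Of 23 Wnt genes 8 (34.8%) were lower and 4 (17.4%) higher, and of 49 genes of actin and microtubules 13 (26.5%) were lower and 2 (4.08%) higher. With the probes near the end alone, the genes lower in all 3 pairs numbered 5 (12.5%) for Notch, Hedgehog, FGF, and BMP signaling, 2 (8.70%) for Wnt signaling, and 8 (16.3%) for actin and microtubules, against 8% of named genes with these probes. *bmp1a*, a protease that matures collagen and frees BMP, was at 9.16, 9.88, and 9.68 in controls and at 7.51, 9.69, and 9.30 with Pb. *bcl9l*, the paralog of *bcl9*, was at 10.08, 10.19, and 10.18 in controls and at 8.22, 9.95, and 9.71 with Pb. Pb array 1 was the lowest in both, and the mean of *bcl9l* turned to 0.24 with the probes near the end alone. All 5 circadian clock genes had a log2 fold change below 0, with medians of -1.03, 0.04, and 0.01 in the 3 pairs. *per3*, a period gene, was at 9.73, 10.67, and 10.27 in controls and at 7.60, 10.37, and 10.01 with Pb.

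**Figure D5:**
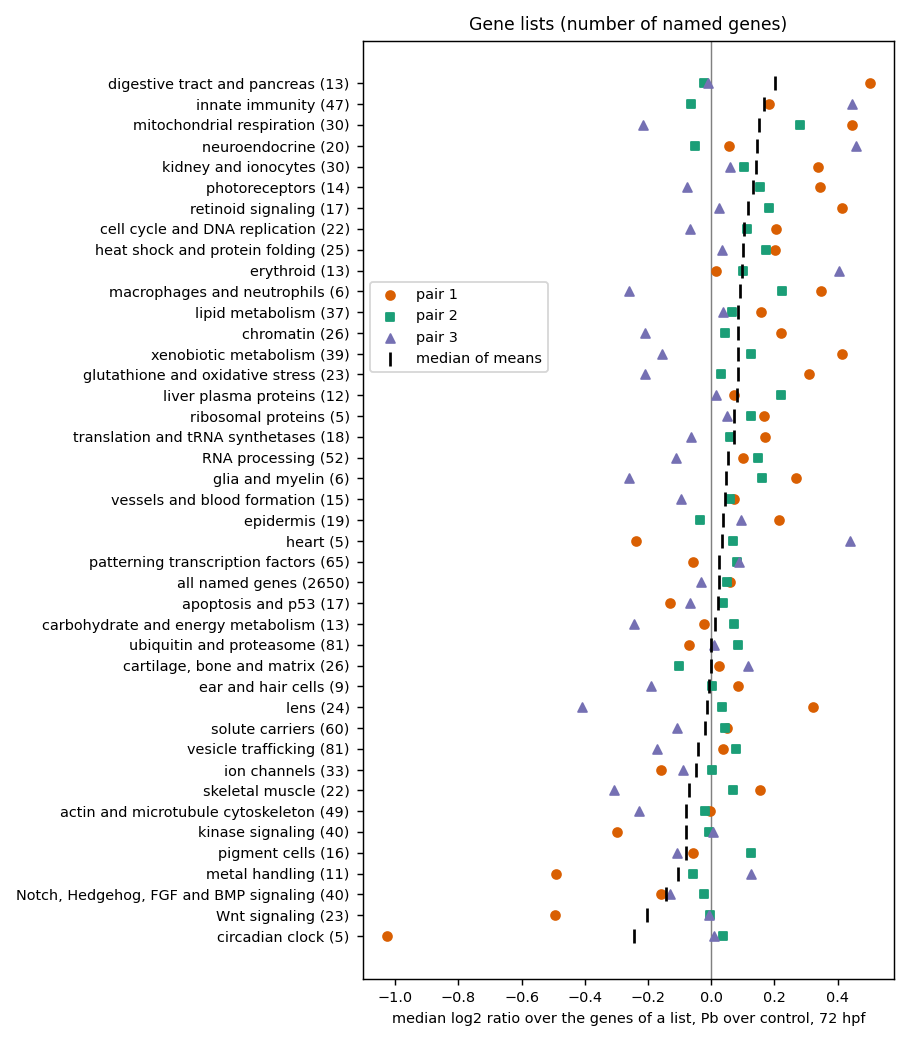
Median log2 ratio of Pb over control over the genes of each list in pairs 1, 2, and 3 (symbols) and median of the log2 fold changes (bars), with the number of named genes in brackets. Kidney and ionocyte, retinoid, heat shock, lipid metabolism, erythroid, liver, and ribosomal protein genes lie above 0 in all 3 pairs. With the probes near the end alone, medians in pair 3 were -0.21 for kidney and ionocyte, -0.06 for retinoid, and -0.07 for heat shock genes. They were 0.06 for lipid metabolism, 0.36 for erythroid, -0.09 for liver, and -0.11 for ribosomal protein genes. Innate immune genes rest on pair 3 (0.44) and Wnt genes on pair 1 (-0.50).

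Basic cell functions made up the rest of the lists, in which genes of either sign in all 3 pairs were found. Of 81 genes of ubiquitin and the proteasome, 12 were higher and 5 lower in all 3 pairs, and of 81 genes of vesicle trafficking, 14 were higher and 9 lower. Patterning transcription factors had 11 higher and 6 lower of 65, lipid metabolism 6 and 2 of 37, RNA processing 6 and 4 of 52, translation 4 (22.2%) and 1 of 18, cell cycle 4 and 2 of 22, and chromatin 3 and 2 of 26. Solute carriers had 5 higher and 9 lower of 60, kinase signaling 6 and 9 (22.5%) of 40, ion channels 2 and 6 (18.2%) of 33, and apoptosis 2 and 3 of 17. *echdc3*, of the enoyl-CoA hydratase family, was at 9.69, 9.64, and 9.51 in controls and at 9.89, 9.85, and 10.19 with Pb. *fbxo7*, a substrate adaptor of a ubiquitin ligase, was at 8.37, 8.13, and 8.46 in controls and at 9.12, 8.51, and 8.59 with Pb. The groups were apart for both. With the probes near the end alone, *fbxo7* gave 1.06, 0.11, and -0.575 and *echdc3* gave 0.18, 0.30, and 0.59. *pou4f3*, a transcription factor of hair cells, was at 8.33, 8.74, and 8.55 in controls and at 8.67, 9.002, and 8.96 with Pb, and *eif4g1a*, a scaffold of translation initiation, was at 13.23, 12.89, and 12.76 in controls and at 11.86, 12.87, and 12.46 with Pb. Both overlapped between the groups, and *eif4g1a* was lowest on Pb array 1. The probes near the end alone gave -0.28, 0.13, and 0.01 for *eif4g1a* and 0.14, 0.40, and 0.48 for *pou4f3*.

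The same genes were also read on the 6 arrays of 120 hpf, which entered the choice of genes only through the shared normalization and the spread estimated in the fit. limma called 0 of 37157 targets for a change in the effect of Pb from 72 to 120 hpf (smallest adjusted p 1, with 75 targets at an unadjusted p under 0.05). Of the 12 genes lower at 72 hpf, 11 had a log2 fold change below 0 at 120 hpf, against 56.5% of named genes, with a median of -0.15. Of the 12 higher ones, 7 lay above 0 at 120 hpf, with a median of 0.0029. Of the 282 named genes lower in all 3 pairs at 72 hpf, 215 (76.2%) lay below 0 at 120 hpf, and of the 359 higher ones 224 (62.4%) lay above 0, against 43.5% of named genes. *capn2a* had ratios of 0.20, -1.29, and -0.14 and *dnmt3aa* of 0.59, -1.05, and -0.02 in the 3 pairs at 120 hpf, so both rested there on pair 2. The ratio of pair 2 at 120 hpf also went down with the position of the last probe of a target (Spearman correlation -0.218 across 37157 targets), as that of pair 1 at 72 hpf did (-0.26), and the part of this in the shared sign was not tested. Of the 12 higher genes, *dusp19b* and *galk1* were above 0 in all 3 pairs at both ages. Their ratios at 120 hpf were 0.16, 0.42, and 0.30 for *dusp19b* and 0.24, 0.12, and 0.36 for *galk1*. Among genes named for their lists, the same held for *avp* (0.63, 0.65, and 0.58 at 120 hpf), *hsp70.3*, *pou4f3*, and *anxa14*. In contrast, *krt97*, *cldn29*, *twist2*, *fancf*, *sec61b*, and *fbxo7* were higher at 72 hpf and lower at 120 hpf in all 3 pairs. *znf800b*, a zinc finger gene higher in all 3 pairs at 72 hpf (0.51, 0.31, and 0.63), was lower in all 3 at 120 hpf (-0.10, -0.16, and -0.37), and this difference did not pass the test (adjusted p = 1 from limma).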

How the data were processed

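Cy3-labeled material from 12 pools was hybridized to 1-color NimbleGen arrays, 1 pool per array, with 3 arrays in each of 4 groups. The authors deposited a linear intensity for each of 385000 probes and 12 arrays, quantile normalized per the study's methods. The submitters' processing notes name RMA (version not given in the sources used here). After a log2 step and quantile normalization across all 12 arrays, probes were averaged within 37157 targets, with no background subtraction and no filter on dim targets. Median deposited intensities ran from 424 to 670 at 72 hpf, so the arrays did not share one distribution as deposited. Precision is limited by the number of arrays.

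Names came from the platform annotation for 2626 targets and from RefSeq transcripts for 37, which left 34494 unnamed. Target values of a gene with several targets were averaged for gene lists. Versions were limma 3.58.1, data.table (1.17.8), and R 4.3.3. The linear model of limma (lmFit, eBayes) covered all 12 arrays without a replicate block, with Benjamini-Hochberg adjustment over all targets and a threshold of 0.05, after a test on simulated data.

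Genes with values in the text were the 12 with the smallest p in each direction among those of one sign in all 3 pairs, and per list of at least 5 named genes the gene with the highest signal and up to 2 with the smallest p of one sign, outside axon guidance, adhesion, and the synapse. The arrays, lists, and rules were chosen with earlier results of these data known, and lists are described by counts and medians with no test. The alternatives were other normalizations (as deposited, median centering, cyclic loess), median polish, probes within 500 nt of the last probe, the lowest 25% of targets left out, array weights, only the 6 arrays of 72 hpf, a replicate block, the methods' t-test, each target counted once in the lists, and each array left out in turn.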

Additional observations from a re-analysis of the deposited data

How the results depend on the processing

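limma called 0 targets at 72 hpf in every alternative run, and 0 for the difference between ages in each of its 4 alternatives. The number of targets at an unadjusted p under 0.05, 566 as reported, was 143 on the values as deposited, 200 with array weights, 240 with median centering, 316 with the lowest 25% of targets left out, 642 with median polish, and 707 with probes within 500 nt of the last probe, whose smallest adjusted p was 0.44. It ranged from 243 to 3723 with an array left out, the highest without Pb array 2 (smallest adjusted p 0.48) and the lowest without control array 2. The correlation between arrays of one number, as deviations from their group means at 72 hpf, was 0.452, 0.402, and -0.069 for numbers 1, 2, and 3, so number 3 did not exceed 0.1. The median deposited intensity was nearly equal within a number at 72 hpf (670 and 670, 481 and 482, 427 and 424). The same held at 120 hpf (531 and 531, 376 and 376, 392 and 391), while the medians differed between numbers. The reason for these shared medians was not tested, and a tie between same-numbered arrays was not settled. The fit with each control and Pb pair of one replicate number and age as a block called 0 targets. It had 1710 at an unadjusted p under 0.05 and a smallest adjusted p of 0.80 from limma.

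Of the values of genes named for a small p, 11 turned their sign under the alternatives, and the cause was not tested. With the probes near the end alone these were *casq1b* (0.038), *lgals3bp.3* (-0.025), *rpl6* (-0.18), *bcl9l* (0.24), *tp53bp1* (0.10), and *scn5lab* (0.11), and with median polish *casq1b* (0.048). With an array left out, *mybpc2b* ranged from -1.16 to 0.013 (without Pb array 3), *cacna2d2b* from -0.68 to 0.028 (without Pb array 1), and *olig1* from -0.029 (without control array 1) to 0.25, with -0.0021 without Pb array 3. Of the genes named for the highest signal, whose log2 fold changes had no call, 24 turned their sign in 67 values, among them *krt97* (-0.17), *rs1a* (-0.42), *rad21a* (0.11), and *mfap4.1* (-0.012) with the probes near the end alone. In all, 17 values of such genes and 21 list medians moved by more than the spread between pairs. The dimmest targets carry no separate background measure, so small differences among them could not be judged.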
